A study of Macaca mulatta with 4 samples.

Results

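The genes described here encode the voltage-gated, inward-rectifier and calcium- or sodium-activated potassium channels, together with the KChIP subunits of the Kv4 channels. They were taken by symbol from a table of read counts per gene, and a gene was kept where at least 2 of the 4 libraries held 10 or more reads. Of 66 gene IDs with a matching symbol, 59 were kept, among 35395 IDs in the table, and two-pore (KCNK) channels were left out. KCNF1 and KCNJ11 had no symbol match and were not analysed here.

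The libraries came from the amygdala, the nuclei of the medial temporal lobe that assign emotional weight to stimuli, of wild type rhesus macaques (Macaca mulatta). The tested condition was 2.5 to 3% inhaled sevoflurane, a halogenated ether anaesthetic, breathed in 3 sessions of 4 hours near postnatal days 7, 21 and 35, with tissue collected directly after the last session (2 libraries, 1 female and 1 male). The other condition was control (2 libraries, 1 female and 1 male), and what the controls breathed and their age were not given in the sources used here. Whether each library was a separate animal beyond the difference in sex was not stated, so the p-values measure only the spread between these libraries, which includes the difference between the sexes.

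Potassium channels let potassium leave the cell, which brings the membrane back to rest after an action potential and sets how readily a neuron fires again. Voltage-gated (Kv) channels open on depolarization and assemble as tetramers within a subfamily, inward rectifiers (Kir) hold the resting potential and carry the slow inhibition of G protein-coupled receptors, and calcium- or sodium-activated channels produce afterhyperpolarizations. In the amygdala, as elsewhere in the forebrain, A-type Kv4 currents damp dendritic signals, the M-current of Kv7 channels restrains repetitive firing, and Kir channels of astrocytes take up potassium.

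The libraries held 12477047 to 16293371 reads on genes, of which the 59 channel genes took 0.148 to 0.269%. Levels below are in CPM, the reads of a gene relative to library size after TMM scaling, and in each pair the female library stands before the male. They depend on transcript length, which was not measured, so levels of different genes were not compared. Changes are relative to that scaling, under which the median gene changed by 0.0040 (log2), where scaling by library totals put it at 0.24. The 6 listed markers of amygdala nuclei all had reads in some library, and 2 were called higher in sevoflurane and 0 lower. LMO3 had 392 and 1175 CPM in sevoflurane and 517 and 761 CPM in control libraries. FOXP2, called higher, had 235 and 35 reads in sevoflurane and 1 and 0 reads in control libraries. TSHZ1, also called higher, had 19.8 and 11.1 CPM in sevoflurane and 3.26 and 0.533 CPM in control libraries. Of 7 pan-neuronal markers 1 rose and 1 fell, with sums of 6354 and 6925 CPM in sevoflurane and 5771 and 5640 CPM in control libraries. SYT1 rose, with 841 and 815 CPM in sevoflurane and 36.2 and 7.37 CPM in control libraries (log2 fold change 5.24). RBFOX3 fell, with 162 and 101 CPM in sevoflurane and 298 and 240 CPM in control libraries (−1.04). Of 6 excitatory markers 0 rose and 1 fell (NRGN, at 985 and 485 CPM in sevoflurane and 4616 and 3604 CPM in control libraries), and their median was 0.56 on the log2 scale. The control male library stood apart, with 19550 CPM summed over 9 choroid plexus genes, against 37.5 and 11.6 CPM in sevoflurane libraries and 41.0 CPM in the control female. Its 5 markers of striatal-type neurons summed to 1538 CPM, against 133 and 207 CPM in sevoflurane libraries and 219 CPM in the control female. Of 79 cytosolic ribosomal protein genes, 0 rose and 67 fell, and of 8 microglial markers 0 rose and 6 fell. The part of these differences in the changes below was not tested. In bulk tissue, fewer cells of a type and less RNA per cell cannot be told apart.

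The read threshold removed 7 genes, of which KCNA10, KCNJ15 and KCNV2 had 0 reads in every library. The other 4, KCNA7, KCNG4, KCNJ1 and KCNN4, held at most 9 reads in any library. KCNJ1, just outside the threshold, had 6 and 9 reads in sevoflurane and 7 and 5 reads in control libraries. KCNH6, just inside it, had 13 and 7 reads in sevoflurane and 11 and 6 reads in control libraries, and was the 1 kept gene that the filter before testing removed. KCNJ5, also just inside, had 19 and 9 reads against 12 and 1 reads. Of the 59 genes, 46 held 10 reads in all 4 libraries, 5 stayed under 10 reads in both controls and 1 stayed under 10 reads in both sevoflurane libraries. The 5 were KCNA3, KCNA6, KCND3, KCNG3 and KCNS1, which met the threshold only through the sevoflurane libraries, and the 1 was KCNJ13.

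The comparison of sevoflurane with control asked which channel genes differed right after the last exposure. Of 58 tested channel genes, 23 rose, 7 fell and 28 were not called (edgeR's quasi-likelihood test, Benjamini-Hochberg adjusted p under 0.05 over all genes). Over all 15417 tested genes, 40.7% were called, 21.3% higher and 19.4% lower, so the share of channel genes called lower (12.1%) was below the background share and the share called higher (39.7%) above it. The median of the 58 log2 fold changes was 1.13, beside 0.0040 for the table as a whole. A gene with few control reads passes the filter only if it is high in sevoflurane, which tilts these counts. Among the 46 genes with 10 reads in all libraries, 13 were higher (28.3%) and 6 lower (13%), with a median of 0.47. The share called among those 46 was 41.3%, beside 40.7% of all tested genes, which did not have to hold 10 reads in all libraries. The share over all genes moved with the filter, from 33.7% with no filter to 50% at 5 CPM in 2 libraries. Both sevoflurane libraries lay above both controls for 30 of the 58 (37.7% of all tested genes) and below both for 14 (37.3%). The count of channel genes called higher was 14 without the sevoflurane female library. The count called lower was 1 without the sevoflurane male, 3 without the control female and 4 with library totals.

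**Figure D1:**
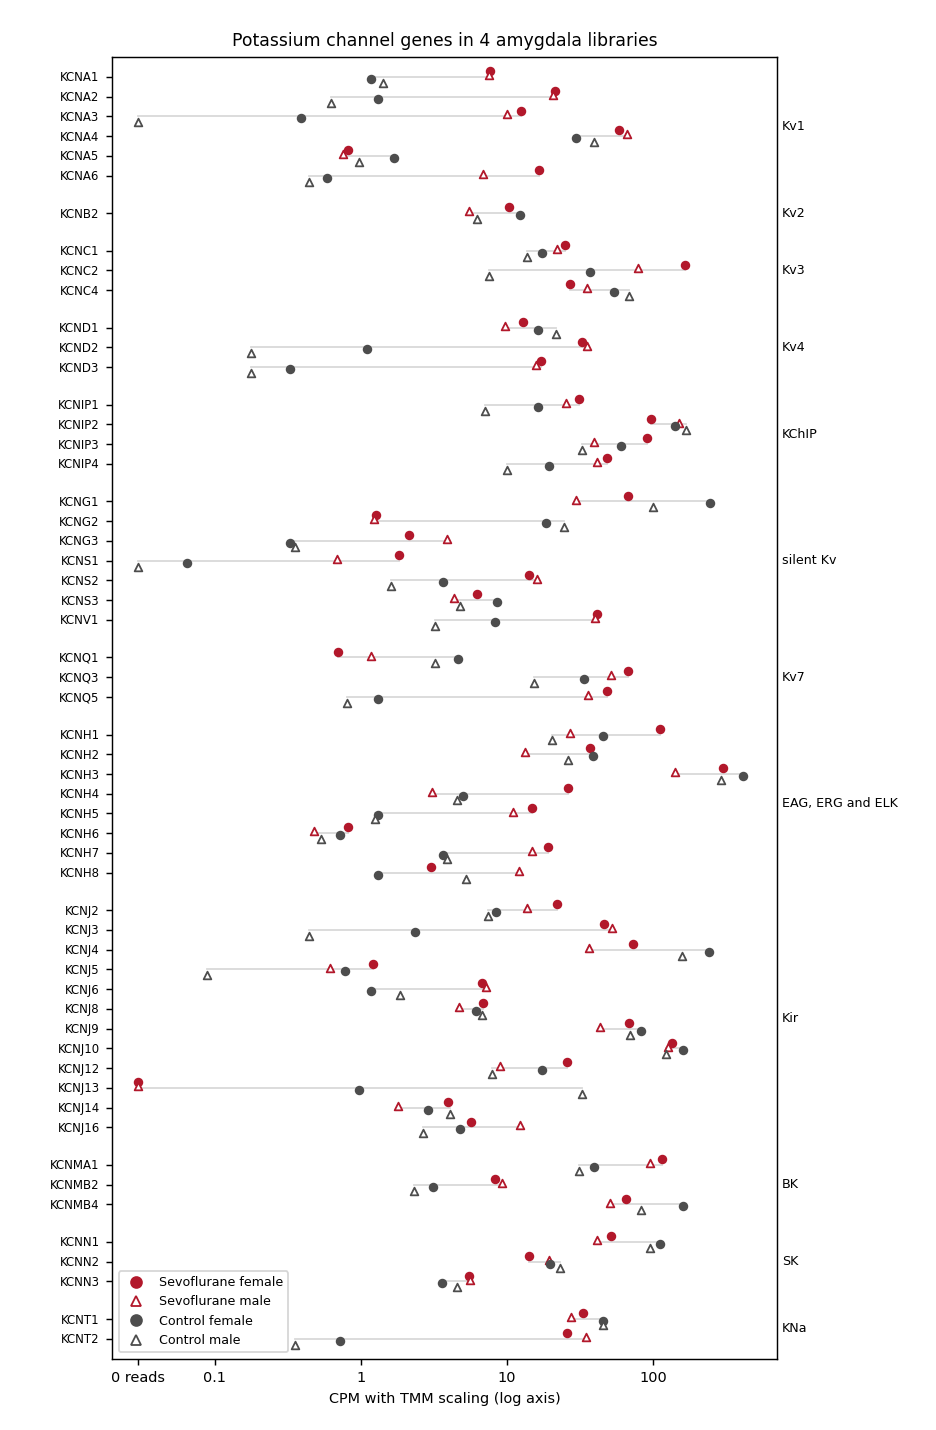
Level of 55 of the 59 potassium channel genes in each library, in CPM with TMM scaling on a log axis, grouped by subfamily. Sevoflurane libraries are red and control libraries grey, females filled circles and males open triangles, and a library with 0 reads is drawn at the left edge. KCND2, KCND3, KCNA2, KCNQ5 and KCNT2 are among the genes with the widest gap between red and grey, while KCNG2 and KCNJ4 show the reverse order.

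Kv1 channels, low-threshold channels of axons and terminals, rose in 4 of 6 cases (66.7%, beside 21.3% of all tested genes) and fell in 0. Of those that rose, KCNA3 and KCNA6 met the read threshold only through the sevoflurane libraries. KCNA1 and KCNA2, which form the channels flanking the node of Ranvier, were higher in sevoflurane. KCNA1 stood at 7.60 and 7.56 CPM in sevoflurane and 1.17 and 1.42 CPM in control libraries, a log2 fold change of 2.54 ± 0.54 SE (edgeR adjusted p = 0.0130). KCNA2 stood at 21.1 and 20.6 CPM in sevoflurane and 1.31 and 0.622 CPM in control libraries (4.40 ± 0.53, edgeR adjusted p = 0.00265). For both genes the sevoflurane libraries lay close together and far above either control. The call of KCNA1 was lost without either sevoflurane library (2.54 and 2.55), and KCNA2 was at 5.06 without the control female.

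KCNA3 (ENSMMUG00000018684), a channel of neurons that lymphocytes and microglia also use, had 12.5 and 9.96 CPM in sevoflurane libraries, against 0.391 and 0 CPM, or 6 and 0 reads, in control libraries (5.66 ± 1.01, edgeR adjusted p = 0.00744). It was at 6.36 by limma-voom and 4.80 with the control male left out, and with the control female left out it was at least 42.2-fold higher against a floor of 3 reads (0.266 CPM). Beside it, the 8 microglial markers summed to 178.9 and 239.9 CPM in sevoflurane and 478.8 and 439.3 CPM in control libraries. KCNA6, a further Kv1 pore subunit, had 16.5 and 6.80 CPM in sevoflurane and 0.587 and 0.444 CPM in control libraries (4.46 ± 0.70), and 3.69 without the sevoflurane female. KCNA4, which gives the inactivating member of the family, had 57.9 and 66.6 CPM in sevoflurane and 29.4 and 39.1 CPM in control libraries. Its groups did not overlap, but the difference of 0.86 ± 0.29 was not called (edgeR adjusted p = 0.0523). KCNA5, better known from heart and smooth muscle, stayed at 0.756 to 1.70 CPM and was not called.

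None of the 3 cytosolic beta subunits of Kv1 was called. KCNAB1 had 84.6 and 84.3 CPM in sevoflurane and 80.1 and 81.1 CPM in control libraries, a log2 difference of 0.07 ± 0.24. The differences of KCNAB2 and KCNAB3 were −0.62 ± 0.34 and 1.31 ± 0.70. Of 5 partners that place Kv1 on the axon, 3 were called higher, beside 21.3% of all tested genes. CNTNAP2 rose by 2.74 ± 0.32, ADAM23 by 1.91 ± 0.28 and ADAM22 by 5.48 ± 0.48. The levels of ADAM22 were 52.7 and 71.6 CPM in sevoflurane and 1.83 and 0.888 CPM in control libraries. ADAM22 was at 6.13 without the control female. LGI1, the secreted ligand of ADAM22, was at 86.4 and 133.5 CPM in sevoflurane and 71.8 and 101.0 CPM in control libraries, which overlapped (0.35 ± 0.32). CNTN2, an adhesion protein that binds CNTNAP2, had 106.1 and 126.9 CPM in sevoflurane and 71.8 and 156.1 CPM in control libraries, which overlapped too (0.03 ± 0.39). Accessory genes in this and the following paragraphs were set beside their channel with their values known.

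Kv2 channels are the main delayed rectifiers of the soma. KCNB2 had 10.4 and 5.50 CPM in sevoflurane and 12.3 and 6.22 CPM in control libraries and was not called (−0.23 ± 0.55). Its groups overlapped and the 2 females stood above the 2 males.

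Among silent Kv subunits, which modify Kv2 channels and form none alone, 4 of 7 rose and 2 fell. The shares were 57.1% higher and 28.6% lower, beside 21.3% and 19.4% of all tested genes. Of those that rose, KCNG3 and KCNS1 met the read threshold only through the sevoflurane libraries. KCNG2 (ENSMMUG00000032486) fell to 1.27 and 1.24 CPM in sevoflurane libraries, against 18.5 and 24.3 CPM in control libraries (−4.09 ± 0.44, edgeR adjusted p = 0.00229). It was called lower under all 11 alternatives tried. KCNG1 had 67.5 and 29.7 CPM in sevoflurane and 243.0 and 100.2 CPM in control libraries (−1.82 ± 0.55), with the female above the male in both conditions. KCNG1 was not called with library totals (−1.59), without the sevoflurane male (−1.35) or without the control female (−1.04), and was at −2.53 without the sevoflurane female.

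KCNV1, a silent subunit of cortical and hippocampal neurons, had 41.0 and 39.9 CPM in sevoflurane and 8.29 and 3.20 CPM in control libraries (2.81 ± 0.50, edgeR adjusted p = 0.00741), and 3.67 without the control female. KCNS2 had 14.2 and 16.1 CPM in sevoflurane and 3.65 and 1.60 CPM in control libraries (2.51 ± 0.54). KCNG3 had 2.15 and 3.92 CPM against 0.326 and 0.355 CPM in control libraries (3.12 ± 0.75). The call of KCNG3 was lost without the sevoflurane male (2.63), as was that of KCNS2 (2.43), which was at 3.25 without the control female. KCNS1 rested on 39 reads in sevoflurane and 1 read in control libraries, a ratio of 34.2 (95% counting interval 5.78 to 1383). Its call was lost without the sevoflurane female (18.3, interval 2.60 to 793), the sevoflurane male (48.8, 8.09 to 1993) or the control male (19.7, 3.33 to 798), and without the control female KCNS1 was at least 4.73-fold higher. KCNS3 was not called (−0.33 ± 0.53).

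Kv3 channels, whose fast deactivation lets interneurons fire at high rates, differed by member, with KCNC2 called higher and KCNC4 lower. KCNC2 had 163.8 and 79.1 CPM in sevoflurane and 36.8 and 7.55 CPM in control libraries (2.45 ± 0.74, edgeR adjusted p = 0.0399). The female library was above the male in both conditions, and the value depended on single libraries. Leaving out the control female gave 4.02 and leaving out the control male 1.70, and the call was lost without the sevoflurane female (1.83) or male (2.88). KCNC1, a marker of fast-spiking neurons, had 25 and 22.1 CPM in sevoflurane and 17.4 and 13.7 CPM in control libraries and was not called (0.60 ± 0.33). KCNC4, an inactivating Kv3 channel, had 26.8 and 35 CPM in sevoflurane and 54.2 and 68.4 CPM in control libraries (−0.99 ± 0.30, edgeR adjusted p = 0.0386). That call was lost with library totals (−0.75) and without any 1 of the 4 libraries (−1.19 to −0.81). Of 8 inhibitory neuron markers 0 rose and 1 fell.

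KCND3 and KCND2, Kv4 channels that carry the A-type current of dendrites, were among the 4 genes with the largest positive log2 fold changes, beside KCNT2 and KCNA3. Of these, KCND3 and KCNA3 met the read threshold only through the sevoflurane libraries. KCND2 (ENSMMUG00000023308) had 32.4 and 35.4 CPM in sevoflurane and 1.11 and 0.178 CPM in control libraries (5.63 ± 0.71, edgeR adjusted p = 0.00297). KCND3 (ENSMMUG00000050825) had 17 and 15.7 CPM in sevoflurane and 0.326 and 0.178 CPM in control libraries (5.93 ± 0.58, edgeR adjusted p = 0.00188). The control levels rest on 17 and 2 reads of KCND2 and on 5 and 2 reads of KCND3. KCND2 was at 4.91 without the control male, and at a ratio of 190.4 (95% counting interval 52.6 to 1574) without the control female, where 2 control reads were left. KCND1, the remaining Kv4 gene, had 12.9 and 9.75 CPM in sevoflurane and 16.4 and 21.5 CPM in control libraries, and its difference of −0.74 ± 0.37 was not called.

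Among the auxiliary subunits of Kv4, KCNIP4 and DPP6 were called higher. Of 4 KChIPs, calcium-binding subunits that set the surface level and inactivation of Kv4, 1 was called higher (25%, beside 21.3% of all tested genes). This was KCNIP4, with 48.0 and 41.1 CPM in sevoflurane and 19.5 and 9.95 CPM in control libraries (1.59 ± 0.40). Its call was lost without the sevoflurane female (1.48), the sevoflurane male (1.70) or the control male (1.18). KCNIP1 had 30.8 and 25.3 CPM in sevoflurane and 16.4 and 7.02 CPM in control libraries and was not called (1.26 ± 0.46, edgeR adjusted p = 0.0711). It was called under 4 of the 11 alternatives, among them leaving out the control female (2.01). KCNIP2 had 97.2 and 150.3 CPM in sevoflurane and 140.3 and 167.9 CPM in control libraries, which overlapped (−0.32 ± 0.30), and KCNIP3, whose protein is also known as the repressor DREAM, overlapped too (0.48 ± 0.48). DPP6, the transmembrane partner of Kv4, had 196.0 and 188.9 CPM in sevoflurane and 35.8 and 24.8 CPM in control libraries (2.67 ± 0.30), and DPP10 was not called (1.44 ± 0.48).

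**Figure D2:**
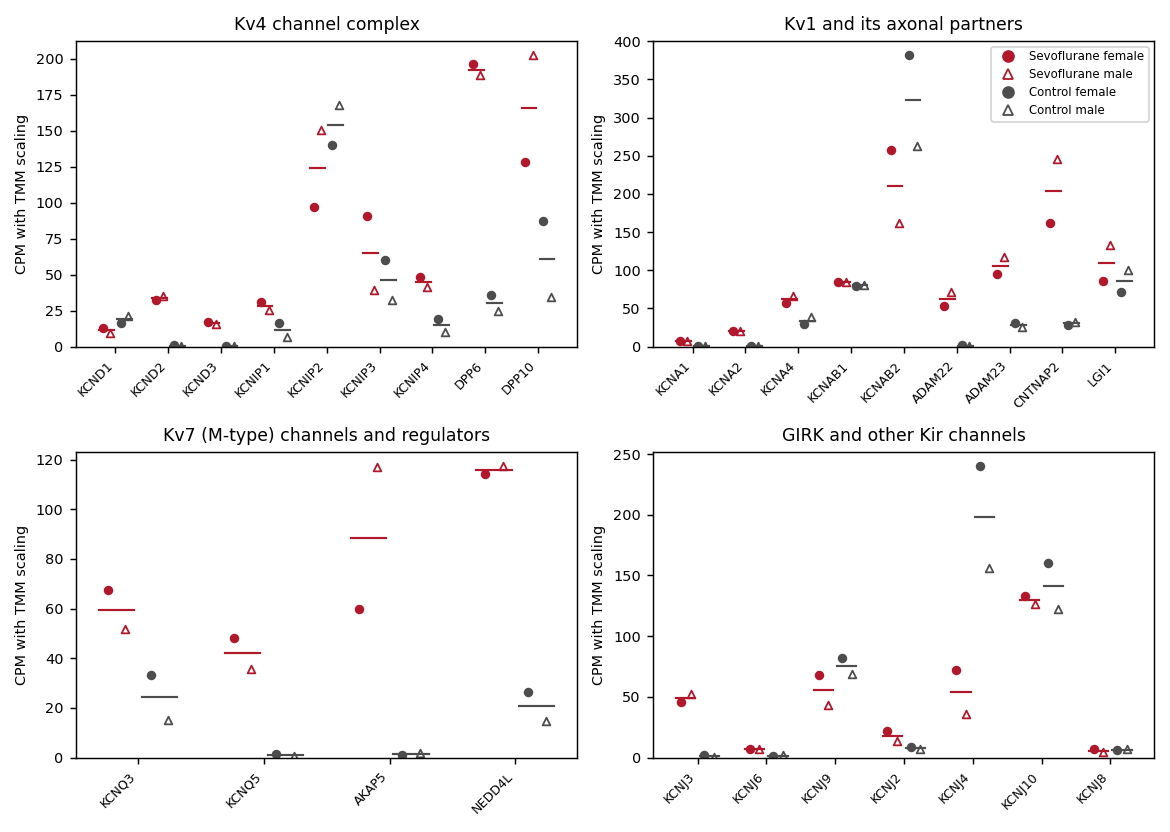
Level in each library, in CPM with TMM scaling from 0, of the genes of 4 channel assemblies, with a bar at the mean of each condition, sevoflurane in red to the left of control in grey. KCND2, KCND3, KCNA2, ADAM22, KCNQ5, AKAP5 and KCNJ3 lie near 0 in both controls, while KCNIP2, KCNJ10 and KCNJ8 have points that overlap between conditions.

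Among Kv7 channels, KCNQ5 was called higher and KCNQ1 lower. KCNQ5 (ENSMMUG00000015320), an M-current subunit, had 48.2 and 35.9 CPM in sevoflurane and 1.31 and 0.800 CPM in control libraries (5.29 ± 0.44, edgeR adjusted p = 0.00153). It was called under all 11 alternatives. KCNQ3, also an M-current subunit, had 67.6 and 51.7 CPM in sevoflurane and 33.3 and 15.3 CPM in control libraries, without overlap, yet was not called (1.29 ± 0.43, edgeR adjusted p = 0.0510). It was called under 7 of the 11 alternatives, among them sex as a term (1.38), and was at 1.98 with the control female left out.

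KCNQ1, a channel of heart and epithelia, had 0.696 and 1.17 CPM in sevoflurane and 4.63 and 3.20 CPM in control libraries (−2.07 ± 0.66, edgeR adjusted p = 0.0465). Its call was lost with library totals (−1.84) and without the sevoflurane female (−1.74), the sevoflurane male (−2.48) or the control female (−1.76). AKAP5, an anchoring protein that brings kinases to Kv7, had 59.7 and 117.2 CPM in sevoflurane and 1.11 and 1.69 CPM in control libraries (5.99 ± 0.51). NEDD4L, a ubiquitin ligase that lowers Kv7 channels at the membrane, rose by 2.48 ± 0.35.

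In the KCNH family 2 of 7 tested genes rose (28.6%, beside 21.3% of all tested genes) and 0 fell. KCNH5, of the ether-a-go-go type, had 14.8 and 11 CPM in sevoflurane and 1.31 and 1.24 CPM in control libraries (3.33 ± 0.50, edgeR adjusted p = 0.00450). KCNH7, an ERG-type gene expressed in brain, had 19.2 and 14.8 CPM in sevoflurane and 3.65 and 3.91 CPM in control libraries (2.17 ± 0.41), a call lost without the sevoflurane female (1.96). The other 5 overlapped between conditions and were not called, with log2 differences of −0.67 (KCNH3) to 1.61 (KCNH4). KCNH1, also an ether-a-go-go type gene, had 112.0 and 27.0 CPM in sevoflurane and 45.3 and 20.3 CPM in control libraries. KCNH4 had 26.1 and 3.09 CPM in sevoflurane and 5.02 and 4.53 CPM in control libraries, so that the sevoflurane female alone stood apart.

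Of 12 inward rectifiers, 2 were higher (16.7%, beside 21.3% of all tested genes), 2 lower (16.7%, beside 19.4%) and 8 not called, shares near the background. Their median was 0.16 on the log2 scale. Of the GIRK channels, which G protein beta-gamma subunits open after activation of GABA-B, opioid or serotonin receptors, KCNJ3 and KCNJ6 rose. KCNJ3 (ENSMMUG00000007096) had 46.1 and 52.1 CPM in sevoflurane and 2.35 and 0.444 CPM in control libraries (5.08 ± 0.70, edgeR adjusted p = 0.00362), with 6.78 when the control female was left out and 4.37 when the control male was. KCNJ6 had 6.77 and 7.21 CPM in sevoflurane and 1.17 and 1.87 CPM in control libraries (2.20 ± 0.57, edgeR adjusted p = 0.0236). The call of KCNJ6 was lost without either sevoflurane library (2.25 without the female, 2.16 without the male) or the control female (1.92). KCNJ9, their partner subunit, had 67.7 and 43.4 CPM in sevoflurane and 81.9 and 68.8 CPM in control libraries and was not called (−0.44 ± 0.31). KCNJ5, the GIRK subunit of the heart atrium, was not called at 0.618 to 1.2 CPM in sevoflurane and 0.0888 to 0.783 CPM in control libraries.

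Of the strong inward rectifiers, KCNJ4 fell and KCNJ2, KCNJ12 and KCNJ14 were not called. KCNJ4 had 72.4 and 36.2 CPM in sevoflurane and 240.0 and 156.5 CPM in control libraries (−1.87 ± 0.41, edgeR adjusted p = 0.0146), a call lost without the sevoflurane male (−1.45). KCNJ2 had 22.1 and 13.7 CPM in sevoflurane and 8.35 and 7.37 CPM in control libraries, without overlap, and was not called (1.18 ± 0.41, edgeR adjusted p = 0.0588). KCNJ12, which has a near-identical copy in the human genome and may share reads, and KCNJ14 differed by less than their errors (0.44 ± 0.61 and −0.28 ± 0.64).

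Of the Kir genes of glia, vessels and epithelia, KCNJ13 alone was called. KCNJ10, the main potassium uptake channel of astrocytes, had 133.4 and 126.2 CPM in sevoflurane and 160.3 and 122.0 CPM in control libraries, which overlapped (−0.12 ± 0.26). Beside it, 1 of 7 astrocyte markers rose and 3 fell, with summed levels of 3010 and 3799 CPM in sevoflurane and 4350 and 4059 CPM in control libraries. KCNJ16, its partner, was not called (1.26 ± 0.60). KCNJ8, the ATP-sensitive channel of pericytes and smooth muscle, had 6.84 and 4.67 CPM in sevoflurane and 6.13 and 6.75 CPM in control libraries (−0.16 ± 0.48). ABCC9, the sulfonylurea receptor that pairs with KCNJ8 in those cells, had 8.42 and 7.49 CPM in sevoflurane and 0.261 and 0 CPM in control libraries (5.71 ± 1.0). Leaving out the control male gave 4.87 for ABCC9, and leaving out the control female a rise of at least 29.8-fold. Of 7 markers of pericytes and smooth muscle, ABCC9 among them, 2 rose and 2 fell.

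KCNJ13 (ENSMMUG00000058645), a channel of choroid plexus and retinal pigment epithelium, had 0 reads in both sevoflurane libraries, against 15 and 364 reads, or 0.979 and 32.3 CPM, in control libraries. Against a floor of 3 reads per library (0.198 CPM) it was at least 84.1-fold lower in sevoflurane (edgeR adjusted p = 0.0261). Leaving out the control male lowered that bound to 4.94-fold, leaving out the control female raised it to 163-fold, and the call was lost without either sevoflurane library and by limma-voom. Of 7 tested choroid plexus genes 0 rose and 2 fell. The 32.3 CPM stood in the library with 19550 CPM of summed choroid plexus genes, where TTR alone had 17580 CPM, against 23.3 and 2.34 CPM in sevoflurane libraries and 11.6 CPM in the control female. KCNE2, a beta subunit made by the same epithelium, had 1.08 and 0.962 CPM in sevoflurane and 2.87 and 6.04 CPM in control libraries (−2.11 ± 0.67). KCNE2 was not called with library totals (−1.87), by limma-voom (−1.95), without the control male (−1.50) or without either sevoflurane library (−2.20 without the female, −2.04 without the male).

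For the large-conductance calcium-activated (BK) channel, KCNMA1 and KCNMB2 were called higher and KCNMB4 was not called. KCNMA1, the pore, had 114.8 and 95.7 CPM in sevoflurane and 39.1 and 31.0 CPM in control libraries (1.59 ± 0.27, edgeR adjusted p = 0.00677), and was called under all 11 alternatives. KCNMB4, the beta subunit that slows the channel in neurons, had 65.5 and 50.2 CPM in sevoflurane and 159.6 and 82.3 CPM in control libraries, and its −1.07 ± 0.37 was not called (edgeR adjusted p = 0.0617). KCNMB2, the inactivating beta subunit, had 8.23 and 9.27 CPM in sevoflurane and 3.13 and 2.31 CPM in control libraries (1.68 ± 0.50). Its call was lost without any 1 of the 4 libraries (1.47 to 1.93). LRRC26, a gamma subunit best known from secretory epithelia, had 0 reads in sevoflurane and 46 and 9 reads in control libraries, and was at least 9.60-fold lower. Leaving out the control female gave a bound of 4.04-fold, leaving out the control male 15.2-fold, and the call was lost without either sevoflurane library. LRRC55, another gamma subunit, had 5.19 and 7.83 CPM in sevoflurane and 0.196 and 1.51 CPM in control libraries and was called higher (2.96 ± 0.94). Its call was lost without the sevoflurane female (3.23), the sevoflurane male (2.63) or the control female (2.12). With the control male left out, 3 control reads remained and the ratio was 33.0 (95% counting interval 11.1 to 161.4).

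Small-conductance calcium-activated (SK) channels, which produce the medium afterhyperpolarization, had 1 of 3 genes lower (33.3%, beside 19.4% of all tested genes) and 0 higher. KCNN1 had 51.7 and 41.4 CPM in sevoflurane and 111.8 and 95.6 CPM in control libraries (−1.16 ± 0.27, edgeR adjusted p = 0.0167), a call lost without the sevoflurane male (−1.0) or the control female (−1.02). KCNN2 had 14.1 and 19.4 CPM in sevoflurane and 19.8 and 23.1 CPM in control libraries (−0.36 ± 0.34). KCNN3 had 5.51 and 5.56 CPM in sevoflurane and 3.59 and 4.53 CPM in control libraries (0.45 ± 0.50). Neither was called. CSNK2B, the regulatory subunit of the kinase CK2 that acts on the calmodulin of SK channels, had 67.9 and 54.8 CPM in sevoflurane and 212.5 and 250.8 CPM in control libraries (−1.92 ± 0.27). CSNK2A1, a catalytic subunit of CK2, had 225.0 and 248.1 CPM in sevoflurane and 126.5 and 105.4 CPM in control libraries and was called higher (1.03 ± 0.25), a call lost without the sevoflurane male (0.96), the control female (1.18) or the control male (0.89).

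Of the sodium-activated pair, KCNT2 rose and KCNT1 was not called. KCNT2 (ENSMMUG00000021082), known as Slick, had 25.8 and 34.6 CPM in sevoflurane and 0.718 and 0.355 CPM in control libraries (5.75 ± 0.52, edgeR adjusted p = 0.00171), and 6.39 without the control female. KCNT1, known as Slack, had 33.0 and 27.2 CPM in sevoflurane and 45.2 and 45.4 CPM in control libraries, and its difference of −0.59 ± 0.28 was not called (edgeR adjusted p = 0.137).

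**Figure D3:**
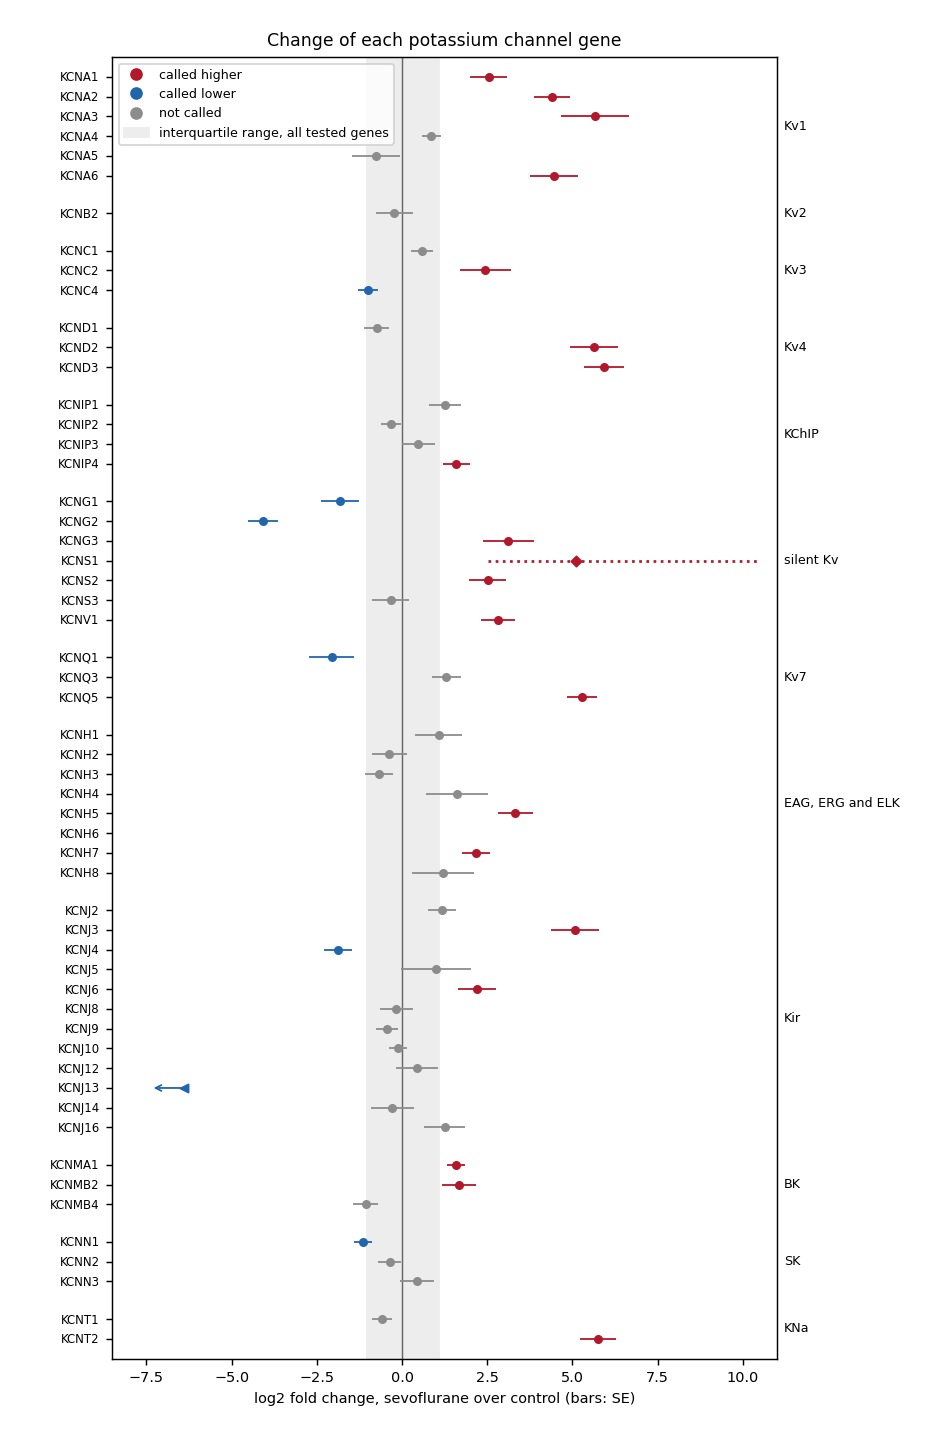
Log2 fold change of sevoflurane over control with its standard error for 54 of the 58 tested genes, coloured by call, with the interquartile range of all tested genes shaded (−1.02 to 1.09). KCNJ13 is drawn at its bound with an arrow and KCNS1 as a ratio of reads with its counting interval (dotted). Called genes stand on both sides of 0 in the silent Kv, Kv7, Kv3 and Kir groups, and on the right alone in Kv1, Kv4, KChIP, KCNH, BK and KNa.

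Of 40 accessory and partner genes with an ID, 37 were tested, 13 rose (35.1%), 4 fell (10.8%) and 20 were not called, with a median log2 fold change of 0.66. The share called was 45.9%, beside 40.7% of all tested genes. The 3 largest rises were those of AKAP5, ABCC9 and ADAM22, and the 3 largest falls those of LRRC26, KCNE2 and CSNK2B, all given above. The count called was 11 without the sevoflurane female and 10 without the sevoflurane male. Other channel families are set beside these for scale only, with no test of a difference. Of 13 tested two-pore potassium and HCN channels 2 rose (15.4%) and 1 fell (7.69%), with a median of 0.02. Of 10 calcium channel alpha-1 subunits 4 rose (40%) and 1 fell (10%), with a median of 0.89. Of 6 sodium channel alpha subunits 4 rose (66.7%) and 0 fell, with a median of 4.88. Over all tested genes 21.3% rose and 19.4% fell.

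Changes in females and in males, each from 1 library per condition, had the same sign for 54 of the 58 channel genes (93.1%), beside 85.4% of all tested genes. The 30 called genes all moved the same way in both sexes, but opposite changes widen the spread and hinder a call, so this is no separate check. The male library was below the female by 2-fold or more in both conditions for 5 of the 58 (2.94% of all tested genes): KCNH1, KCNJ12, KCNC2, KCNG1 and KCNS1. For KCNS1 the controls held 1 and 0 reads, so its value there comes from the 0.5 reads added and is no measured difference. It was above by 2-fold or more in both for KCNH8 (2.55% of all tested genes), which had 3.04 and 12 CPM in sevoflurane and 1.31 and 5.24 CPM in control libraries. With condition in the model, 4 of the 58 were called between males and females (1.84% of all tested genes). These were KCNH1 (male over female −1.61, edgeR adjusted p = 0.0162), KCNC2 (−1.63, edgeR adjusted p = 0.0197), KCNG1 (−1.23, edgeR adjusted p = 0.0377) and KCNJ13, whose reads lie almost all in the control male. With 1 library per sex and condition, sex cannot be told apart from any other difference between 2 libraries.

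**Figure D4:**
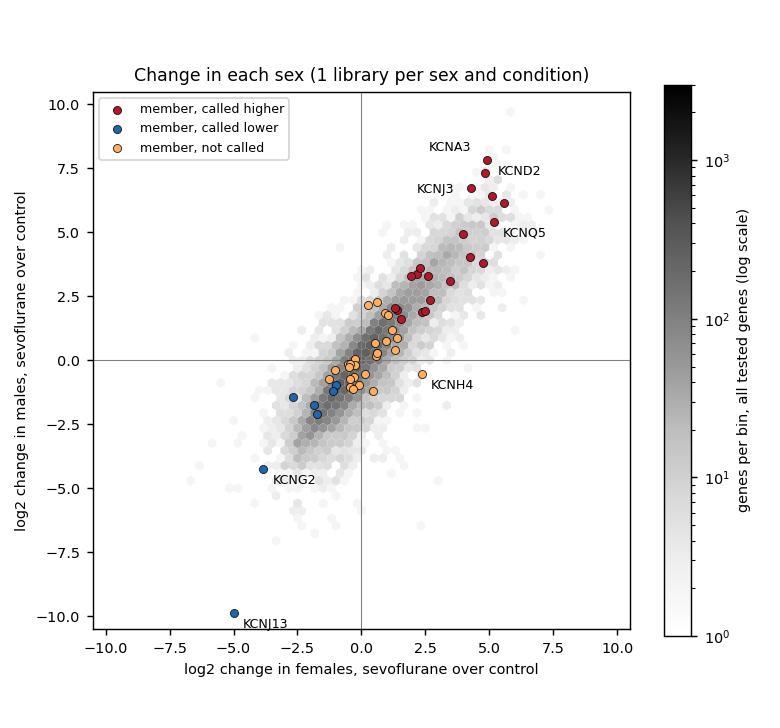
Log2 change of sevoflurane over control in males against that in females, from log2 CPM with 0.5 reads added, for 54 of the channel genes (points, coloured by call) over all tested genes (grey bins). Called genes lie in the upper right and lower left quadrants, and KCNH4 lies in the lower right, at 2.37 in females and −0.55 in males.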

How the data were processed

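The submitters' processing notes name HISAT2 as the aligner. Its version, the counting program, strand setting, genome build and annotation were not given in the sources used. What the authors deposited is 1 table of raw counts per Ensembl gene ID, and each of its 4 sample columns entered the analysis. A table of gene IDs gave symbols for 24173 of them. Without a genome or sequences of the same build, positions, lengths and sequences are not given, and a gene may share reads with a close copy or an overlapping neighbour.

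The filter of edgeR (filterByExpr, minimum count 10) kept 15417 genes. TMM factors were 1.10 and 1.07 for sevoflurane and 0.942 and 0.904 for control libraries. Conditions were compared with edgeR 4.0.16 (R 4.3.3, quasi-likelihood F-test, no covariate, 2 residual degrees of freedom) and adjusted by Benjamini-Hochberg over every tested gene. The code was tested on simulated data. Standard errors came from the F statistic. Groups and sex came from the labels. At 0 reads in a condition the fold is a bound against 3 reads per library, and at 1 to 3 reads a ratio with an exact 95% interval that covers counting error only.

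Alternatives were library totals, RLE factors, no filter, 5 CPM in 2 libraries, DESeq2 1.42.0, limma-voom (limma 3.58.1), sex as a term, and leaving out each library. The members, the accessory and marker lists and the naming rule (called genes whose log2 fold change was 2 or more in size, plus textbook members whatever their values) were chosen with earlier results of these data known, and no list was tested as a list. Values of a few genes are not reported here, although they enter the fit and the counts.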

Additional observations from a re-analysis of the deposited data

Results flagged for a closer look

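Opposite changes in females and males were found for 4 of the 58 tested channel genes, none of them called, and the difference between the sexes was not tested, since each sex holds 1 library per condition. KCNH4, an ELK-type voltage-gated channel, had log2 changes of 2.37 in females and −0.55 in males, a difference of 2.92. KCNJ14, a strong inward rectifier, had 0.45 in females and −1.18 in males, a difference of 1.63. KCNJ8, the ATP-sensitive channel of pericytes, had 0.16 in females and −0.53 in males, a difference of 0.69. KCNJ10, the potassium uptake channel of astrocytes, had −0.27 in females and 0.05 in males, a difference of −0.31.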

How the results depend on the processing

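With 2 libraries per condition, counts of calls depended on single libraries. Leaving out each library in turn gave 3404 to 5728 called genes in all, against 6278 with all 4. Of the channel genes, 14 to 24 were then higher and 1 to 7 lower (3 without the control female), and of the accessory genes 11 were called without the sevoflurane female and 10 without the sevoflurane male. Library totals gave 26 channel genes higher and 4 lower, and 63.3% of all called genes were then higher, against 52.3%. The other alternatives gave 23 to 29 higher and 5 to 9 lower, with 48 channel genes tested at 5 CPM. Under the 11 alternatives, 0 called channel genes changed direction while called. Sex as a term, which grouped the libraries as a replicate block would, gave 7825 calls in all, with 28 channel genes higher and 9 lower. It lost 0 of the 30 and added KCNA4, KCNH1, KCNH3, KCNIP1, KCNJ2, KCNMB4 and KCNQ3. Over the 11 alternatives these uncalled genes passed the threshold in 6 (KCNA4), 3 (KCNH1), 2 (KCNH3), 4 (KCNIP1), 5 (KCNJ2), 4 (KCNMB4) and 7 (KCNQ3), and KCNH4 in 2 of the 10 that gave it a value. Deviations from the condition mean correlated at r = 0.33 between the 2 females, across genes.

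Some uncalled genes changed sign. With library totals the log2 fold change was 0.074 for KCNJ8, 0.11 for KCNJ10 and 0.0012 for KCNB2. Without the sevoflurane female it was −0.28 for KCNH1, −0.63 for KCNH4, −0.24 for KCNIP3 and −0.50 for KCNJ12. Without the sevoflurane male it was 0.18 for KCNH2, −0.10 for KCNH8, 0.086 for KCNJ8, 0.18 for KCNJ14 and 0.16 for KCNB2. Without the control female it was 0.10 for KCNJ10, 0.36 for KCNB2 and 0.16 for KCNS3, and without the control male −0.036 for KCNJ12. The causes were not tested.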
